A study of Rattus norvegicus with 9 samples.

Results

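The comparison described here sets 3 RNA sequencing libraries in the columns named IGF-NS against 3 control libraries in the columns named LH-NS. All are from S31 cells, wild-type primary vascular smooth muscle cells (VSMC) that were isolated from cardiac microvessels, the donors being male Wistar Kyoto rats. Every culture was starved of serum for 48 h, and the control cells then got fresh serum-free medium with no growth factor and were harvested at 24 h. The treated set carries 2 names. Its columns say IGF, whereas the sample records that point to those columns say recombinant rat PDGF-BB at 25 ng/ml with harvest at 48 h, and nothing was reassigned here. The other set of 3 libraries, in the PDGF-NS columns, is recombinant human IGF-1 at 25 ng/ml with harvest at 24 h by record. It enters the expression filter and the shared estimate of spread, and is compared directly at the end. By record the control was harvested at 24 h and the IGF-NS set at 48 h, so growth factor and time in culture cannot be told apart. Nothing in the labels says that the 3 replicates of a set were grown apart. A p-value here measures only how far these libraries spread, which may be technical. The genes described are those with a mean of at least 1 FPKM (fragments per kilobase of transcript, scaled to the fragments sequenced, the authors' unit) over the 9 libraries. They number 11380 of the 26407 rows of the deposited table, and 11376 of them could be tested.

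Vascular smooth muscle cells in a vessel wall are quiescent and contract through a cytoskeleton of actin, myosin and calponin whose genes are driven by serum response factor and its coactivator myocardin. In culture, under growth factors or after injury, they can lose that apparatus, divide, move and make matrix, which is called phenotypic modulation. PDGF-BB and IGF-1 both act through receptor tyrosine kinases. The PDGF receptor signals strongly through the MAP kinase ERK, and the IGF-1 receptor mainly through insulin receptor substrates, PI3-kinase and AKT.

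FPKM summed to 633189 to 655645 in the LH-NS libraries and 616899 to 675121 in the IGF-NS libraries, and 11049 to 11141 against 11213 to 11307 genes reached 1 FPKM. Read depth is not given by FPKM. The steps between the lowest values put it roughly, relative to library LH-NS-1, at 0.66 to 1.00 in LH-NS and 0.61 to 1.08 in IGF-NS. Sums of cell type markers take in every marker of a list that has a value, tested or not. Of the smooth muscle markers, 10 of 11 were tested and 7 were lower in IGF-NS, with a summed level of 2364 to 3367 FPKM in the LH-NS and 516.6 to 545.0 in the IGF-NS libraries. The member below the expression filter was Myh11, smooth muscle myosin heavy chain, at 1.38, 1.31 and 2.60 FPKM in LH-NS and 0.305, 0.478 and 0.430 in IGF-NS. Of the fibroblast markers, 7 of 11 were tested and 4 were higher, and their sum went from 344.3 to 471.5 up to 1948 to 2075 FPKM, most of it lumican. Fap, Tcf21 and Cd34, also on that list, were listed at 0. Markers of other cell types were in part present and in part listed at 0 in all 6 libraries. Of 10 pericyte markers 6 were tested, with sums of 466.2 to 736.2 FPKM in LH-NS and 531.2 to 686.9 in IGF-NS, mostly the PDGF receptor Pdgfrb, while Rgs5 and Higd1b were at 0. Heart muscle markers summed to 514.0 to 865.0 FPKM in LH-NS and 53.5 to 111.5 in IGF-NS, mostly phospholamban, which smooth muscle also makes, while Myh6 and Myh7 were at 0. Endothelial markers, of which 2 were tested, summed to 10.94 to 11.07 FPKM in LH-NS and 4.20 to 6.61 in IGF-NS, with Cdh5, Cldn5 and Tie1 at 0. Leukocyte markers, of which 3 were tested, summed to 19.3 to 29.9 FPKM in LH-NS and 24.1 to 34.0 in IGF-NS, with Ptprc and Cd163 at 0. Glial and neural markers summed to 19.7 to 28.4 FPKM in LH-NS and 87.1 to 91.7 in IGF-NS, mostly Ncam1, with Sox10 at 0. Adipocyte markers summed to 6.35 to 7.00 FPKM in LH-NS and 9.32 to 10.14 in IGF-NS. Epithelial and mesothelial markers summed to 94.7 to 289.2 FPKM in LH-NS and 67.9 to 308.2 in IGF-NS, with Epcam at 0. In bulk RNA, fewer cells of a type and less RNA per cell cannot be told apart, and whether cell makeup has a part in the changes below was not tested.

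Of the 11376 genes tested, 2827 differed between the sets (adjusted p under 0.05, limma), or 24.9%. In IGF-NS 1976 were higher (17.4% of those tested) and 851 lower (7.48%). Most changes were small. The median of the rises was 0.73 and that of the falls −0.91 on the log2 scale, and 435 genes rose and 353 fell by at least 1. A change of at least 3 was seen in 10 genes that rose and 14 that fell. The median of all genes tested was itself 0.15, and a scaling by the median ratio of genes, which removes such a shift by design, took it to 0.01 and gave 1144 higher and 1220 lower. Log2 fold changes below include that shift. They are differences in log2(FPKM + 1), given ± SE from the fit, with 3 libraries behind each mean, and understate the change of genes with low FPKM. With the 6 libraries of the comparison alone in the fit, 1990 genes were called. Leaving out library IGF-NS-1 left 1757 calls, 1181 of them higher and 576 lower, and leaving out IGF-NS-2 left 609 lower, so a count of members that rose and fell is followed in brackets by both counts with each library named there left out in turn, or under median ratio scaling, where that moved one of them by over 1.5 times. A gene is said to have risen or fallen only where the test called it. Unless stated otherwise such a gene had its 3 IGF-NS libraries on one side of all 3 LH-NS libraries, and kept its call under every alternative that tested it. Such a lack of overlap was seen in 2798 of the 2827 called genes and in 4438 of all 11376 tested.

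**Figure D1:**
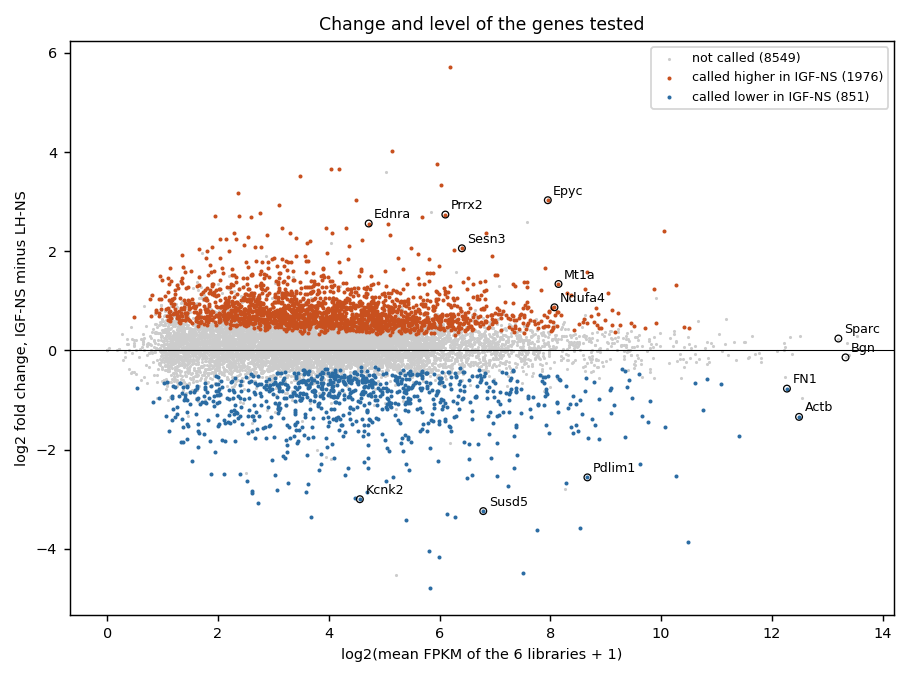
Log2 fold change of each gene tested (IGF-NS minus LH-NS, y axis) against its level over the 6 libraries (x axis), 1 point a gene, orange for the 1976 called higher, blue for the 851 called lower and grey for the rest, with 13 genes of the text circled. Called genes lie at all levels, and Bgn and Sparc, 2 of the most abundant transcripts, lie near 0 beside Actb and FN1, which fell.

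The genes were described in 74 lists by function, each read against the shares of all genes above. Lists of the contractile and adhesive cytoskeleton lay far to the lower side of these shares, and lists of mitosis, interferon-stimulated genes, fatty acid oxidation, and retinoid, steroid and alcohol metabolism to the higher side. Ribosomal protein, ribosome biogenesis, proteasome, lysosome and cholesterol lists held fewer called members than genes in general.

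**Figure D2:**
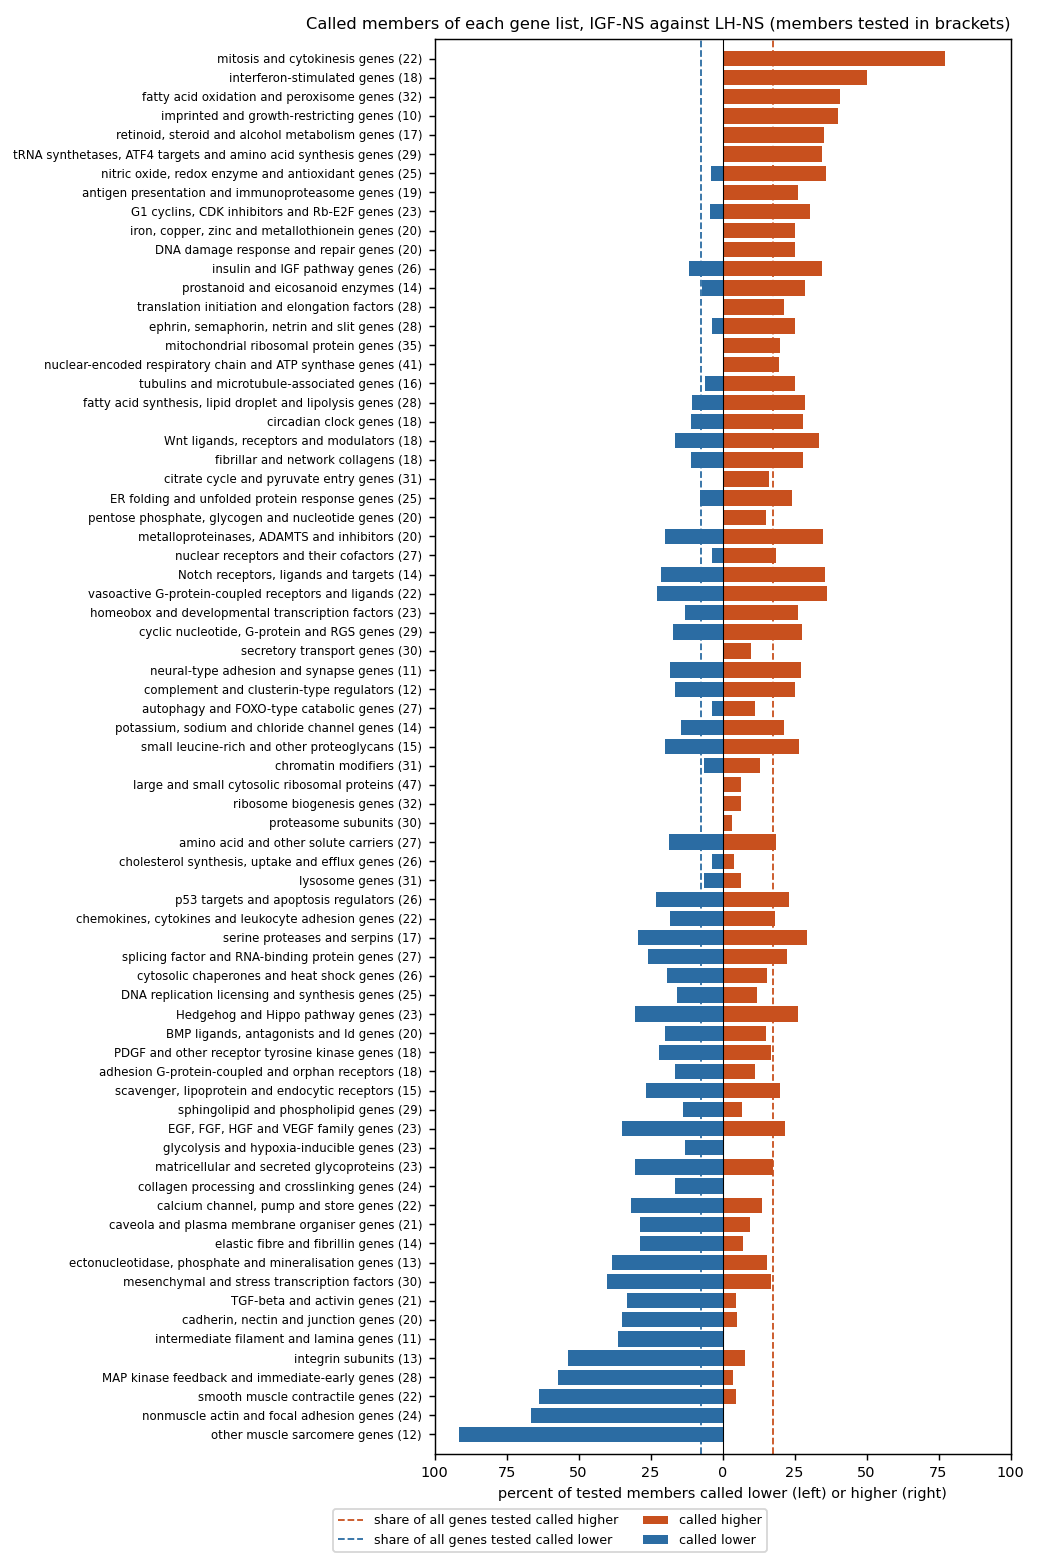
Percent of the tested members of each list shown called higher (orange, right) and lower (blue, left) in IGF-NS against LH-NS, with the number tested in brackets. Dashed lines mark the shares over all genes tested, 17.4% higher and 7.48% lower, and mitosis genes stand at the top and muscle sarcomere genes at the bottom.

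Beyond the smooth muscle contractile genes, of which 1 of 22 tested members rose and 14 fell (2 and 17 without IGF-NS-3), genes of other muscle sarcomeres and of the ordinary cytoskeleton were lower as well. Of the sarcomere list 0 of 12 tested members rose and 11 fell, with a median of −1.64. Casq2, the calcium-binding protein of the sarcoplasmic reticulum, stood at 68.5, 58.6 and 69.99 FPKM in the LH-NS libraries and at 19.3, 20.4 and 16.8 in the IGF-NS libraries (log2 fold change −1.75 ± 0.15, adjusted p = 6.5e-05). The LIM-domain proteins Pdlim5 and Pdlim7, which tie kinases to actinin, fell from 250.1 to 74.6 and from 213 to 89.5 FPKM, and the stretch-responsive Ankrd1 from 100.4 to 34.6. Of the list of nonmuscle actin and focal adhesion genes 0 of 24 tested members rose and 16 fell (1 and 16 without LH-NS-3 or IGF-NS-2), with a median of −0.94. Actb, cytoplasmic beta-actin (ENSRNOG00000034254) and often taken as a reference gene, went from 8164, 7240 and 9392 FPKM to 3075, 2872 and 3837 (−1.34 ± 0.16, adjusted p = 0.00044). No IGF-NS library reached the lowest LH-NS library, and the difference in mean FPKM is the largest of any gene tested. Zyx, zyxin, which marks tension-bearing adhesions, went from 739.6, 522 and 629 FPKM to 174, 157 and 228 (−1.76 ± 0.17), and Vcl, vinculin, which links talin to actin, from 341, 348 and 455 to 103, 129 and 125 (−1.66 ± 0.14). The crosslinkers Actn4 (−1.63 ± 0.16) and Flna (−1.29 ± 0.14) and the integrin activator Tln1 (−1.14 ± 0.16) fell too.

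Regulators of actomyosin moved both ways. Rock2, a kinase that sustains myosin light chain phosphorylation, was at 24.5, 37.1 and 46.2 FPKM in LH-NS and 14.1, 15.6 and 12.5 in IGF-NS (−1.25 ± 0.20, adjusted p = 0.00227), and Rock1 went from 14.1 to 6.55 (−0.99 ± 0.24). The Rac-directed Arhgap24 fell (−0.85 ± 0.19) and the GTPase-activating Arhgap18 rose (0.80 ± 0.15). Of the intermediate filament list 0 of 11 tested members rose and 4 fell, among them Vim, vimentin (2668 to 1670 FPKM, −0.67 ± 0.12), and Emd, emerin of the nuclear envelope (−1.04 ± 0.11). Stmn1, stathmin, which destabilises microtubules, rose from 74.4, 70.5 and 55.9 FPKM to 132, 147 and 186 (1.20 ± 0.19).

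Among integrin subunits, 1 of 13 tested members rose and 7 fell (0 and 5 to 7 without LH-NS-2 or LH-NS-3). Those that fell include the collagen-binding alpha chains Itga11 (55.6, 32.3 and 33.3 FPKM in LH-NS, 6.86, 7.48 and 8.01 in IGF-NS, −2.25 ± 0.21) and Itga1 (42.4, 41.4 and 37.1 against 12.3, 16.1 and 17.2, −1.36 ± 0.16). A further collagen-binding chain, Itga2, had 1.12, 1.14 and 1.36 and 2.11, 2.91 and 1.63 FPKM and did not pass (adjusted p = 0.101). The laminin-binding Itga7 fell from 23.2 to 3.30 FPKM (−2.42 ± 0.33) and the shared beta chain Itgb1 from 316 to 173 (−0.87 ± 0.15). Within the list of cadherins and junction genes 1 of 20 tested members rose and 7 fell (1 and 4 without LH-NS-2, LH-NS-3 or IGF-NS-1). Fat1, a giant cadherin of cell contacts, fell (255 to 133 FPKM, −0.95 ± 0.15), and Gja5, the vascular connexin 40, went from 2.84, 3.92 and 5.25 FPKM to 0.197, 0.271 and 0.336 (−1.95 ± 0.24). Pcdh18, a protocadherin, moved the other way (12.1 to 24.7 FPKM, 0.97 ± 0.14). In the caveola and membrane list 2 of 21 tested members rose and 6 fell (1 and 5 to 8 without LH-NS-1, IGF-NS-1 or IGF-NS-2, 1 and 8 under median ratio scaling). Cav2, a caveolin, fell (131 to 68.3 FPKM, −0.93 ± 0.16) while Sdpr, the caveola coat protein cavin 2, rose from 21.6, 19.2 and 16.6 FPKM to 79.8, 67.2 and 82.1 (1.95 ± 0.15, adjusted p = 4.0e-05). S100a6, a calcium-binding protein, fell from 2391 to 1067 FPKM, and Cd44, the hyaluronan receptor, from 30.1 to 14.1.

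Most matrix lists held genes that rose and genes that fell. Of the collagens 5 of 18 tested members rose and 2 fell (4 to 5 and 1 without LH-NS-2, IGF-NS-1 or IGF-NS-2). Col6a3, which forms beaded microfibrils, rose from 16.1, 10.9 and 11.9 FPKM to 31.6, 26.2 and 32.7 (1.17 ± 0.19), Col12a1, which decorates fibrils, from 14.7, 19.9 and 24.02 to 33.9, 44.4 and 50.4 (1.10 ± 0.20), and Col5a2, which sets fibril width, by 0.62 ± 0.13. Of genes that process collagen 0 of 24 tested members rose and 4 fell (0 and 2 without LH-NS-1, LH-NS-2, LH-NS-3, IGF-NS-1 or IGF-NS-2), among them Plod2, a lysyl hydroxylase (221 to 129.7 FPKM, −0.78 ± 0.14), and P4ha3, a prolyl hydroxylase subunit (101 to 49.3 FPKM, −1.02 ± 0.14). In the elastic fibre list 1 of 14 tested members rose and 4 fell (0 to 2 and 3 to 4 without LH-NS-1, LH-NS-3, IGF-NS-1, IGF-NS-2 or IGF-NS-3, 0 and 5 under median ratio scaling). Its members include Ltbp1 and Ltbp2, which bind latent TGF-beta or microfibrils, at −1.06 ± 0.12 and −1.21 ± 0.21. FN1, fibronectin, which integrins assemble into fibrils, was at 6648, 5783 and 6301 FPKM in LH-NS and 3809, 3716 and 3458 in IGF-NS (−0.77 ± 0.15, adjusted p = 0.00481). Of proteoglycans 4 of 15 tested members rose and 3 fell. Vcan, versican, a large hyaluronan-binding proteoglycan, rose from 24.3, 29.9 and 34.5 to 141, 128 and 99.1 FPKM (2.02 ± 0.17). The summed fibroblast markers given above moved with these rises, and their part in them was not tested.

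Of the matricellular glycoproteins 4 of 23 tested members rose and 7 fell. Thbs2, thrombospondin 2 (2.33 to 10.6 FPKM, 1.79 ± 0.33), and Spon1, F-spondin, which carries thrombospondin repeats (97.00, 114 and 104 against 260.1, 284 and 279.7 FPKM, 1.38 ± 0.14), rose. Genes of the CCN family fell, among them Nov (CCN3, 773, 616 and 792 FPKM against 217, 180.3 and 229, −1.79 ± 0.15) and Wisp1 (CCN4, −0.92 ± 0.18). Within the metalloproteinase list 7 of 20 tested members rose and 4 fell (4 and 3 to 4 without LH-NS-2, LH-NS-3, IGF-NS-1 or IGF-NS-2, 4 and 4 under median ratio scaling). The membrane-bound metalloproteinases Mmp14 (207 to 355 FPKM, 0.78 ± 0.17) and Mmp16 (34.6, 30.5 and 22.2 against 101, 89.2 and 96.2, 1.70 ± 0.18) rose. The secreted Adamts12 (108, 113 and 103 against 33.8, 39.3 and 35.2 FPKM, −1.55 ± 0.11) and Adamts9 (−1.72 ± 0.16) and the matrix-bound inhibitor Timp3 (504 to 285 FPKM, −0.82 ± 0.16) fell. Of the serine protease and serpin list 5 of 17 tested members rose and 5 fell. Plat, tissue plasminogen activator, rose (31.8 to 53.7 FPKM, 0.73 ± 0.14), as did the secreted protease Htra3 (2.11 ± 0.34). F2r, the thrombin receptor, fell from 396 to 165 FPKM (−1.25 ± 0.14).

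Feedback genes of growth factor signalling lay mostly on the lower side. Of MAP kinase feedback and immediate-early genes 1 of 28 tested members rose and 16 fell (1 to 2 and 8 to 10 without LH-NS-1, IGF-NS-1 or IGF-NS-2), with a median of −0.83. Spry4, an inhibitor of receptor tyrosine kinase signalling, went from 37.1, 32.03 and 38.1 FPKM to 10.1, 11.6 and 14.4 (−1.51 ± 0.28), and the ERK-induced transcription factors Etv4 (3.38, 2.82 and 2.77 against 0.52, 0.184 and 0.621, −1.48 ± 0.18) and Etv5 (34.6 to 18.8, −0.84 ± 0.18) were lower in all 3 libraries. The member that rose was Dusp10, a phosphatase of JNK and p38 rather than ERK (2.26, 3.13 and 4.76 against 14.97, 12.01 and 14.5 FPKM, 1.79 ± 0.24). In the EGF, FGF, HGF and VEGF list 5 of 23 tested members rose and 8 fell (4 and 5 without IGF-NS-1). The EGF receptor ligands Hbegf (17.6, 20.2 and 24.1 FPKM in LH-NS, 6.53, 9.00 and 8.87 in IGF-NS, −1.25 ± 0.18) and Tgfa (5.74 to 2.17, −1.11 ± 0.23) fell, while Egfr, their receptor, rose (5.59 to 11.99, 1.00 ± 0.21). Among PDGF and other receptor tyrosine kinase genes, 3 of 18 tested members rose and 4 fell (5 and 4 without LH-NS-1). Pdgfa, a ligand of the PDGF receptors, fell from 79.6, 72.6 and 73.1 FPKM to 21.2, 18.9 and 35.3 (−1.59 ± 0.25), and so did the neurotrophin Bdnf (13.8 to 5.23, −1.25 ± 0.18). Kitlg, the ligand of KIT, rose (4.33 to 10.04, 1.10 ± 0.23). Ntrk3, the receptor of neurotrophin 3, rose from 28.4 to 48.2 FPKM (0.74 ± 0.17).

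In the insulin and IGF pathway list 9 of 26 tested members rose and 3 fell. The receptor Igf1r fell (63.96, 57.5 and 66.4 against 17.02, 17.4 and 21.5 FPKM, −1.70 ± 0.13), while Insr, the insulin receptor, was at 18.02, 13.8 and 12.9 and 14.9, 14.7 and 15.2 FPKM, with overlapping libraries and a log2 fold change of 0.01 ± 0.14 (adjusted p = 0.957). Several genes that restrain the pathway rose. Grb10, an adaptor that inhibits insulin and IGF-1 receptors, went from 99.04, 95.3 and 81.9 FPKM to 178, 167 and 158 (0.86 ± 0.14, adjusted p = 0.00215), and Sesn3, a sestrin that dampens mTORC1 and a FOXO target, from 47.6, 30.7 and 20.8 to 151, 123 and 129.6 (2.06 ± 0.25). Foxo1 itself, a transcription factor that AKT keeps out of the nucleus, rose by 0.56 ± 0.12 and Sesn1 by 0.66 ± 0.15. Igf2r, which clears IGF-2, rose from 22.6 to 35.8 FPKM. Grb14, a relative of Grb10 that also inhibits these receptors, fell (183 to 86.01 FPKM, −1.09 ± 0.17), so the inhibitors did not all move one way.

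Of TGF-beta and activin genes 1 of 21 tested members rose and 7 fell (0 and 4 to 7 without LH-NS-1, IGF-NS-1 or IGF-NS-3, 0 and 11 under median ratio scaling). The ligands Tgfb3 (205, 172 and 295 FPKM against 28.5, 37.8 and 47.4, −2.53 ± 0.25) and Tgfb2 (254 to 133, −0.92 ± 0.21) fell, together with the activin-binding Fst, follistatin (−2.16 ± 0.32), and Fstl3 (82.2 to 30.3 FPKM, −1.41 ± 0.14). In the BMP list 3 of 20 tested members rose and 4 fell. All 3 BMP ligands named here, Bmp3 (55.3, 29.9 and 31.2 against 3.23, 4.40 and 4.12 FPKM, −2.97 ± 0.23), Bmp4 (166 to 65.6, −1.33 ± 0.19) and Bmp6 (15.8 to 4.97, −1.54 ± 0.32), were lower. Bambi, a pseudoreceptor that blocks TGF-beta and BMP signals, rose (23.8 to 47.04, 0.94 ± 0.23). Of the genes named here the ligands fell, the activin-binding Fst and Fstl3 fell with them, and the decoy receptor rose. Other members of the BMP list that rose are not named here.

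In the Wnt list 6 of 18 tested members rose and 3 fell. The secreted antagonist Sfrp4 rose from 5.35, 5.04 and 3.17 FPKM to 24.3, 29.04 and 27.4 (2.36 ± 0.19), and the receptors Ror1 (21.4, 22.5 and 18.3 against 46.2, 48.8 and 46.7, 1.16 ± 0.13) and Lrp6 (24.98 to 38.7, 0.61 ± 0.13) rose as well, while Fzd7, a frizzled receptor, fell (68.2 to 30.2, −1.16 ± 0.21). Of the Notch list 5 of 14 tested members rose and 3 fell (3 to 5 and 1 to 3 without LH-NS-1, LH-NS-2, LH-NS-3, IGF-NS-1, IGF-NS-2 or IGF-NS-3, 3 and 3 under median ratio scaling). Hey2, a Notch target that marks arterial smooth muscle, went from 181, 185 and 174 FPKM to 42.5, 67.6 and 58.6 (−1.69 ± 0.19). The receptor Notch1 (7.99 to 13.2, 0.66 ± 0.15) and Lfng, the glycosyltransferase that tunes Notch to its ligands (5.42 to 13.8, 1.16 ± 0.28), rose. In the joint Hedgehog and Hippo list 6 of 23 tested members rose and 7 fell (3 and 6 to 7 without LH-NS-2, LH-NS-3 or IGF-NS-1). Of the 6 called higher 5 belong to the Hedgehog pathway. The other is Tead2, whose sets overlap (means from 17.5 to 30.4 FPKM) and whose call was lost in 8 of 16 alternatives. All 7 that fell belong to the Hippo pathway. The Hedgehog co-receptors Cdon (15.2, 20.3 and 18.7 FPKM against 51.6, 40.7 and 45.2, 1.30 ± 0.15) and Boc (14.1 to 33.8, 1.26 ± 0.23) and the transcription factor Gli3 (17.5 to 37.8, 1.07 ± 0.14) rose. Among Hippo genes, other members of the TEAD family, which carries YAP to DNA, fell, such as Tead1 from 57.1 to 36.7 FPKM (−0.63 ± 0.12) and Tead4 from 11.8 to 4.95 (−1.11 ± 0.16). The kinase Lats2 (−0.98 ± 0.14), Ajuba, an inhibitor of Lats (−0.81 ± 0.18), Amotl2, a YAP-binding angiomotin (162, 115 and 129 against 31.5, 35.4 and 44.7 FPKM, −1.84 ± 0.19), and Vgll3, a TEAD cofactor (74.5 to 24.3, −1.63 ± 0.24), fell with them. Of axon guidance genes, which also steer vascular cells, 7 of 28 tested members rose and 1 fell (6 and 2 under median ratio scaling). The largest rise there was that of Sema3a, a repulsive semaphorin (2.61, 2.13 and 1.83 FPKM against 19.3, 14.6 and 12.6, 2.36 ± 0.24).

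Receptors through which vessels are told to contract or relax changed in both directions. Of vasoactive receptors and ligands 8 of 22 tested members rose and 5 fell. Ednra, the endothelin A receptor (ENSRNOG00000012721), went from 6.99, 6.73 and 6.27 FPKM to 47.4, 43.3 and 41.6 (2.56 ± 0.12, adjusted p = 3.1e-06), with little spread in either set. The sphingosine phosphate receptors S1pr1 (6.97, 10.6 and 8.70 against 21.8, 23.5 and 21.8, 1.28 ± 0.15) and S1pr3 (37.00, 32.8 and 37.95 against 108, 71.3 and 74.8, 1.19 ± 0.19) rose, as did the angiotensin receptor Agtr1a (1.13 to 4.41, 1.35 ± 0.15) and the prostaglandin F receptor Ptgfr (3.68 to 8.08, 0.95 ± 0.17). Adm, the vasodilator peptide adrenomedullin (2.25 to 9.45, 1.61 ± 0.28), and Ramp2, a part of its receptor (20.7 to 45.03, 1.07 ± 0.17), rose together. The vasopressin receptor Avpr1a fell from 14.7, 10.2 and 17.4 FPKM to 2.03, 2.81 and 2.06 (−2.17 ± 0.19), the serotonin receptor Htr1b from 2.35 to 0.314 (−1.35 ± 0.19), the nucleotide receptor P2ry2 from 10.1 to 3.43 (−1.34 ± 0.16) and the natriuretic peptide clearance receptor Npr3 from 75.3, 57.3 and 45.5 to 29.01, 26.9 and 26.2 (−1.06 ± 0.21). Receptors known to raise calcium through Gq, such as Ednra and Avpr1a, thus stood on both sides.

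Downstream of these receptors, in the cyclic nucleotide and RGS list, 8 of 29 tested members rose and 5 fell (5 to 6 and 1 to 3 without LH-NS-2, LH-NS-3, IGF-NS-1, IGF-NS-2 or IGF-NS-3, 5 and 6 under median ratio scaling). The calcium-activated phosphodiesterases Pde1a (0.678, 0.131 and 0.326 FPKM against 8.94, 7.52 and 7.49, 2.72 ± 0.18) and Pde1c (0.114, 0.0891 and 0 against 3.94, 0.836 and 1.83, 1.47 ± 0.31) were near 0 in LH-NS and rose. Pde1c is known from proliferating smooth muscle, and its 3 IGF-NS libraries differ by several-fold among themselves. Rgs10 (32.9 to 74.05, 1.13 ± 0.18) and Rgs3 (11.1 to 22.97, 0.98 ± 0.22), which shorten G-protein signals, rose, and Prkg1, the cGMP-dependent kinase of relaxation, fell (14.7 to 8.94, −0.65 ± 0.13). Of calcium genes 3 of 22 tested members rose and 7 fell (3 and 4 without IGF-NS-1). Itpr1, the main calcium release channel of smooth muscle (22.6, 19.2 and 19.5 against 7.27, 7.12 and 7.62 FPKM, −1.36 ± 0.15), and Trpc6, a receptor-operated channel (14.8, 15.6 and 31.1 against 2.21, 2.14 and 2.03, −2.70 ± 0.25), fell. Stim2, a sensor of store calcium (6.93 to 13.5, 0.88 ± 0.14), and Orai2, a store-operated channel (4.81 to 10.98, 1.05 ± 0.21), rose. In the list of other channels 3 of 14 tested members rose and 2 fell (3 and 4 under median ratio scaling). Kcnk2, the stretch-sensitive potassium channel TREK-1, fell from 50.4, 36.01 and 36.8 FPKM to 3.81, 4.03 and 4.76 (−3.00 ± 0.16, adjusted p = 6.7e-06), and Kcnmb1, the smooth muscle subunit of the BK channel, from 14.9 to 4.30 (−1.61 ± 0.18). Ano1, the calcium-activated chloride channel, rose from 2.99, 6.11 and 4.01 to 22.8, 15.8 and 14.5 (1.81 ± 0.26).

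**Figure D3:**
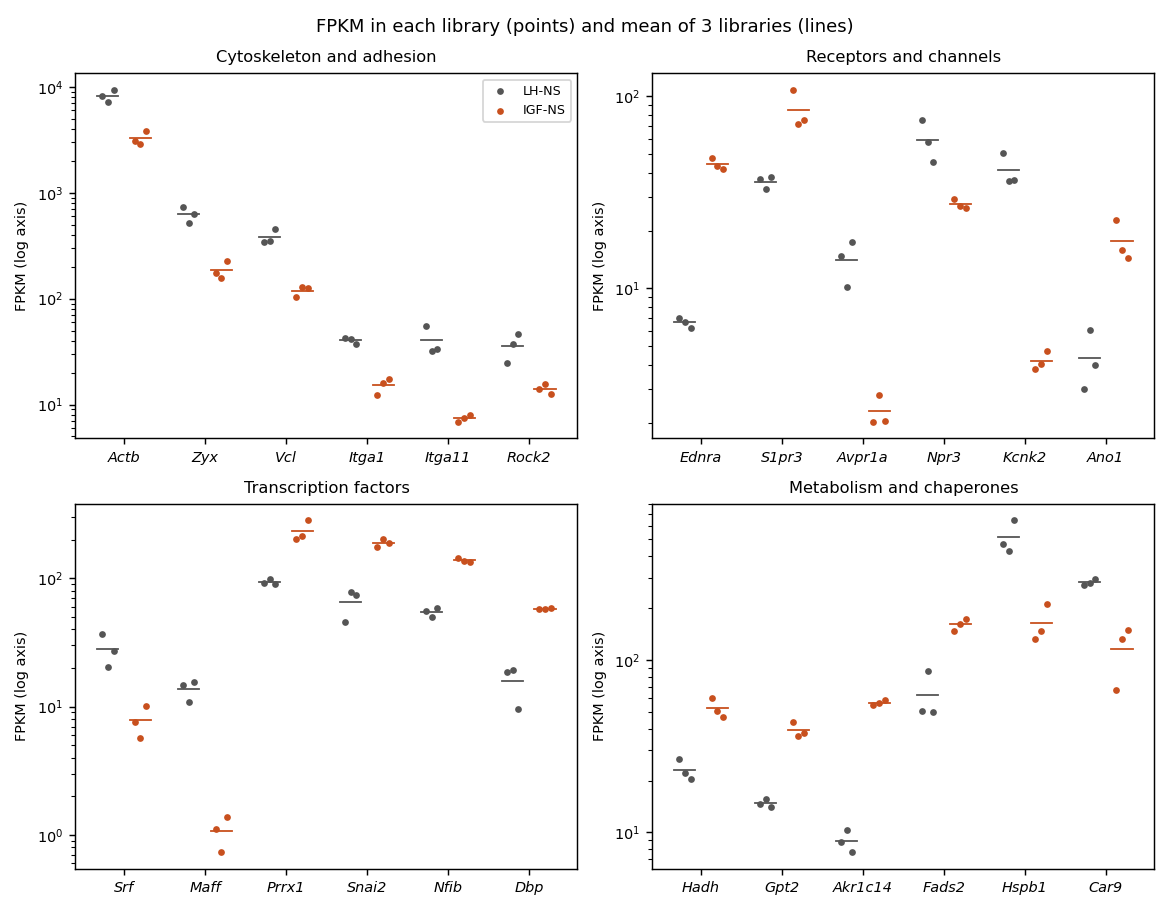
FPKM (log axis) of 24 genes in the 3 LH-NS (grey) and 3 IGF-NS (orange) libraries, in 4 panels by function, with each library as a point and the mean as a line. In each gene shown the 3 IGF-NS points lie on one side of all 3 LH-NS points, for example Ednra at 41.6 to 47.4 against 6.27 to 6.99 FPKM. The same holds for 2798 of the 2827 called genes and 4438 of all 11376 tested.

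Transcription factors of smooth muscle identity and of stress fell more often than they rose. Of the mesenchymal and stress list 5 of 30 tested members rose and 12 fell. Srf, serum response factor itself, stood at 37.1, 20.4 and 27.3 FPKM in LH-NS and 7.65, 5.66 and 10.2 in IGF-NS (−1.72 ± 0.23, adjusted p = 0.00079). Mkl1, the actin-sensing SRF coactivator MRTF-A, went from 112 to 56.6 (−0.97 ± 0.18), and Maff, a small stress-responsive bZIP factor, from 14.7, 10.8 and 15.5 to 1.12, 0.735 and 1.38 (−2.82 ± 0.24). Runx1 (−1.18 ± 0.27), Twist2 (−0.65 ± 0.13) and Klf9 (−0.79 ± 0.15) fell too. Snai2, the transcriptional repressor Slug, rose from 45.7, 77.7 and 73.7 FPKM to 174, 201 and 189 (1.53 ± 0.19), and Zeb2, a repressor of the same programme of motile mesenchyme, from 36.1 to 61.8 (0.76 ± 0.13). The nuclear factor I genes Nfib (55.4, 50.1 and 58.2 against 144, 137 and 135, 1.33 ± 0.11) and Nfia (65.3 to 138, 1.09 ± 0.17) rose. Among homeobox and developmental factors 6 of 23 tested members rose and 3 fell (6 and 1 without IGF-NS-1, 6 and 5 under median ratio scaling). Prrx1, a limb and fibroblast homeobox factor, rose from 92.2, 98.2 and 90.9 to 200.5, 214 and 283 FPKM (1.29 ± 0.16), its paralog Prrx2 from 16.6, 18.9 and 15.1 to 137, 95.9 and 124 (2.74 ± 0.17), Meis2 from 42.6 to 97.7 (1.17 ± 0.12) and Meis1 by 0.69 ± 0.11. Foxc2, a forkhead factor of vessels, fell (55.3 to 32.6, −0.75 ± 0.17).

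Of the clock genes 5 of 18 tested members rose and 2 fell (4 to 5 and 1 without LH-NS-1 or IGF-NS-2). The output factors Dbp (18.7, 19.3 and 9.55 FPKM against 57.5, 57.6 and 58.98, 1.87 ± 0.24) and Tef (20.2 to 40.9, 0.98 ± 0.15), the period gene Per3 (7.80 to 18.3, 1.16 ± 0.18) and the repressor Nr1d1 (24.5 to 39.6, 0.67 ± 0.12) rose, and Npas2, a CLOCK relative, fell (2.30 to 0.469, −1.15 ± 0.21). By record the sets were harvested at different times. Of chromatin modifiers 4 of 31 tested members rose and 2 fell (2 to 5 and 0 to 1 without LH-NS-1, LH-NS-2, LH-NS-3, IGF-NS-1 or IGF-NS-2, 2 and 3 under median ratio scaling). Tet1, which oxidises methylcytosine, rose from 4.57 to 11.99 FPKM (1.23 ± 0.16), and Ezh2, the PRC2 methyltransferase, from 2.12 to 4.79 (0.88 ± 0.20). In the list of splicing factors and RNA-binding proteins 6 of 27 tested members rose and 7 fell (2 to 4 and 2 to 5 without LH-NS-2, LH-NS-3, IGF-NS-1 or IGF-NS-2, 2 and 9 under median ratio scaling). Rbpms, a splicing regulator of differentiated smooth muscle, fell from 655, 395 and 411 FPKM to 120.5, 130.3 and 270.1 (−1.54 ± 0.31), with 1 IGF-NS library above the other two, and Zfp36, which destabilises cytokine mRNAs, from 81.6 to 25.8 (−1.62 ± 0.33). Of imprinted and growth-restricting genes 4 of 10 tested members rose and 0 fell (4 and 1 without IGF-NS-3), among them Mest (31.2, 24.4 and 32.6 against 106, 59.2 and 78.4 FPKM, 1.40 ± 0.20) and Peg3 (24.6 to 43.99, 0.81 ± 0.15).

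Genes of mitosis and cytokinesis held the largest share of rises of the 74 lists. Of these 17 of 22 tested members rose and 0 fell, with a median of 0.98. Top2a, which untangles chromosomes, was at 6.08, 7.87 and 6.31 FPKM in LH-NS and 10.6, 20.7 and 19.7 in IGF-NS (1.17 ± 0.25). Tpx2, a spindle factor that activates Aurora A (7.99, 12.3 and 11.8 against 17.7, 28.4 and 31.3, 1.18 ± 0.23), Ect2, a GTPase activator of cytokinesis (2.12, 3.33 and 2.58 against 5.77, 7.86 and 7.18, 1.11 ± 0.20), Kif23, a kinesin of the midzone (7.21 to 15.5, 1.01 ± 0.19), and Cdc20, an activator of the anaphase-promoting complex (14.3, 13.3 and 17.4 against 23.1, 27.2 and 41.1, 0.95 ± 0.21), rose. Library IGF-NS-1 was the lowest of its set in each of these 5 genes and still above every LH-NS library. Of DNA replication genes, by contrast, 3 of 25 tested members rose and 4 fell (2 to 3 and 0 to 2 without LH-NS-1, LH-NS-2, IGF-NS-1 or IGF-NS-2), with a median of −0.11. Tyms, thymidylate synthase (16.7 to 29.7, 0.78 ± 0.14), and Rfc4, a clamp loader subunit (4.99 to 10.7, 0.96 ± 0.20), rose, while Pcna, the sliding clamp, had 60.2, 105 and 96.2 FPKM in LH-NS and 78.2, 112 and 94.7 in IGF-NS, which overlap (adjusted p = 0.664).

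Promoters of mitotic genes are known for CCAAT boxes and for the CHR element, through which the DREAM and B-Myb complexes act. RefSeq promoter windows (GRCr8, 250 bases before to 50 after the annotated start) were found for 18 of the 22 mitosis genes tested. For each gene of a list only the first window given for its symbol was used. The shares of all promoters count every window, whether or not its gene was tested here, so the sets compared are not alike. The CHR letters TTTGAA, on either strand, stood in 12 of them (66.7%) against 18.3% of the 33469 promoters in the table, and CCAAT in 15 (83.3%) against 37.5%. The bases before the start of 4 members that rose are printed because they hold both motifs, which are in capitals (TTTGAA or its reverse complement TTCAAA for the CHR, and CCAAT or its reverse complement ATTGG for the box). In Mki67 a CHR and a CCAAT box overlap in 1 run. They lie on the minus strand at chr1:199952594-199952793 (Mki67, the Ki-67 antigen, 15.6 to 41.8 FPKM), chr10:84473094-84473263 (Top2a), chr2:111966627-111966786 (Ect2) and chr5:137255800-137255899 (Cdc20), and are written 5′ to 3′ on that strand.
Mki67: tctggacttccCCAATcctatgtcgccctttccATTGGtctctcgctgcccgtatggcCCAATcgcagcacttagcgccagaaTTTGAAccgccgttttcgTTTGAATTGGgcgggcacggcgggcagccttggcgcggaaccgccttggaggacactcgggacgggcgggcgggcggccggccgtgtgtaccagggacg
Top2a: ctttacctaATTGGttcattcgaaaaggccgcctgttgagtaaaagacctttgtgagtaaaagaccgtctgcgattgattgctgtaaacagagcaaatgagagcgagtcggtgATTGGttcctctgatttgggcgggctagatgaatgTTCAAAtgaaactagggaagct
Ect2: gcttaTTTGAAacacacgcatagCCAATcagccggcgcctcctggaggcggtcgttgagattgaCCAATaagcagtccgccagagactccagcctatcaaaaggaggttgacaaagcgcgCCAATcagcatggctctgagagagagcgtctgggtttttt
Cdc20: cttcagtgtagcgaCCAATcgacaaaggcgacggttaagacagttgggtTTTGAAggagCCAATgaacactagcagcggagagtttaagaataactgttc
Of the contractile list 17 of 22 genes had a window. A strict CArG box, the site of serum response factor, was found in 2 of them (11.8%) against 1.64% of all promoters, and neither gene was among the members that fell. One is Svil, supervillin, which tethers myosin to the membrane and is the only member that rose (18.1, 21.00 and 17.7 FPKM against 39.4, 34.3 and 41.8, 0.98 ± 0.14). Its match ends at the annotated start, as the last 100 bases before it show, at chr17:57462661-57462760 on the minus strand with the match in capitals. The other is LDB3 (1.63 to 0.717 FPKM, adjusted p = 0.0874), which was called lower under quantile normalization. The TEAD letters GGAATG were in 4 of the 17 windows (23.5%, against 14.2% of all) and in 1 of the 18 mitosis windows (5.56%). Such matches are letters in a window, and no binding was measured. Sites outside the windows were not searched, and the contractile genes without a window include genes that fell.
Svil: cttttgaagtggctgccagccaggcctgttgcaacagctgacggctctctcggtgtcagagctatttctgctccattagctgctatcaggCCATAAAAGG

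Of G1 cyclins, CDK inhibitors and Rb-E2F genes 7 of 23 tested members rose and 1 fell (4 to 5 and 1 to 2 without IGF-NS-1 or IGF-NS-3, 3 and 1 under median ratio scaling). Ccnd1, cyclin D1, fell from 87.4, 87.5 and 81.2 FPKM to 34.6, 43.2 and 53.4 (−0.97 ± 0.18, adjusted p = 0.00434). Cdkn2c, an inhibitor of its kinase, rose from 9.49, 11.8 and 8.83 to 21.4, 19.2 and 24.5 (1.04 ± 0.15), the pocket protein Rbl2 by 0.67 ± 0.15, and Ccng2, a FOXO-induced cyclin tied to arrest, from 10.2 to 27.4 (1.36 ± 0.17). Cdkn1a, p21, had overlapping libraries at 80.8, 98.8 and 88.9 and 95.2, 109 and 149 FPKM (adjusted p = 0.177). Myc had 104, 82.2 and 66.7 and 58.6, 57.8 and 67.1 FPKM and missed the threshold (−0.44 ± 0.16, adjusted p = 0.0691), which it passed under median ratio scaling, under quantile normalization and without LH-NS-3. Of p53 targets and apoptosis genes 6 of 26 tested members rose and 6 fell. BCL2L11, the death activator BIM and a FOXO target (8.47, 9.82 and 6.03 against 25.6, 17.1 and 26.8, 1.41 ± 0.24), and Ddit4, an mTORC1 inhibitor (10.7 to 34.95, 1.61 ± 0.31), rose. The antiproliferative Btg2 (60.6 to 15.98, −1.87 ± 0.35) and Btg1 (374 to 184, −1.03 ± 0.17), the stress gene Gadd45b (−1.12 ± 0.14) and Tnfrsf12a, the TWEAK receptor (158, 125 and 168 against 27.5, 27.9 and 42.6, −2.18 ± 0.20), fell.

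Few ribosomal protein and ribosome biogenesis genes were called. Translation factors (21.4% called) lay near the 24.9% of all genes, and the list of tRNA synthetases, ATF4 targets and amino acid synthesis (34.5%) lay above it. Of cytosolic ribosomal proteins 3 of 47 tested members rose and 0 fell (0 to 1 and 0 without LH-NS-1, LH-NS-2, LH-NS-3, IGF-NS-1 or IGF-NS-2, 0 and 1 under median ratio scaling), or 6.38%. Their median of 0.15 equals that of all genes tested. Of ribosome biogenesis genes 2 of 32 tested members rose and 0 fell (1 to 4 and 0 to 1 without LH-NS-2, LH-NS-3, IGF-NS-1, IGF-NS-2 or IGF-NS-3, 1 and 2 under median ratio scaling). One of those that rose is Ncl, nucleolin (72.5, 81.4 and 83.2 FPKM against 125, 126 and 127, 0.67 ± 0.11). In translation factors 6 of 28 tested members rose and 0 fell (3 to 7 and 0 to 1 without IGF-NS-1, IGF-NS-2 or IGF-NS-3, 3 and 0 under median ratio scaling), among them Eif4g2 (79.4 to 142, 0.83 ± 0.14) and Eif3e (21.4 to 39.8, 0.86 ± 0.20). Of the amino acid list 10 of 29 tested members rose and 0 fell (6 and 0 without LH-NS-3, IGF-NS-1 or IGF-NS-2, 6 and 1 under median ratio scaling). Those that rose include enzymes of serine and one-carbon synthesis, Phgdh (43.9, 32.05 and 24.9 against 68.6, 56.9 and 78.8, 1.02 ± 0.24), Psat1 (78.96, 66.1 and 53.5 against 153, 124 and 129.8, 1.04 ± 0.19) and Aldh1l2 (18.8 to 43.2, 1.16 ± 0.24), with Asns, asparagine synthetase (0.72 ± 0.14), Gpt2, a mitochondrial transaminase (14.7, 15.7 and 13.99 against 43.6, 36.2 and 37.5, 1.34 ± 0.16), and DDIT3, the stress factor CHOP (61.8 to 132, 1.08 ± 0.17). The mRNA of Atf4, the factor that drives these genes and is controlled mainly in its translation, was at 898, 882 and 818 and 704, 626 and 828 FPKM, overlapping (−0.27 ± 0.14, adjusted p = 0.189). It was called lower under median ratio scaling.

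In the list of ER folding genes 6 of 25 tested members rose and 2 fell (4 to 5 and 1 without LH-NS-1, LH-NS-3, IGF-NS-1 or IGF-NS-2, 4 and 4 under median ratio scaling). Hsp90b1 (108, 153 and 147 FPKM against 231, 306 and 215, 0.88 ± 0.20), the disulphide isomerase Pdia4 (139 to 229.8, 0.72 ± 0.14) and Herpud1 (156 to 231, 0.56 ± 0.11) rose, and Hspa5, the chaperone BiP, overlapped between the sets (130.5, 232 and 257 against 139, 219.5 and 175, adjusted p = 0.668). Of cytosolic chaperones 4 of 26 tested members rose and 5 fell (1 to 2 and 5 without IGF-NS-1 or IGF-NS-2, 2 and 8 under median ratio scaling). The small heat shock protein Hspb1 fell from 471, 428 and 647 FPKM to 132, 147 and 212 (−1.66 ± 0.22), and the inducible Hspa1b (5.62 to 0.823, −1.80 ± 0.29) and the co-chaperone Dnajb5 (55.9 to 19.9, −1.46 ± 0.21) fell with it. Cct2, a subunit of the chaperonin that folds actin and tubulin, rose (116 to 182, 0.65 ± 0.14). Few genes of disposal and transport were called. Of proteasome subunits 1 of 30 tested members rose and 0 fell (0 to 3 and 0 without LH-NS-2, LH-NS-3, IGF-NS-1, IGF-NS-2 or IGF-NS-3, 0 and 0 under median ratio scaling), or 3.33%. Of secretory transport genes 3 of 30 tested members rose and 0 fell (2 and 1 without LH-NS-1 or IGF-NS-3, 2 and 3 under median ratio scaling), and of lysosome genes 2 of 31 tested members rose and 2 fell (2 and 1 without LH-NS-1, LH-NS-2, LH-NS-3, IGF-NS-1 or IGF-NS-2, 1 and 3 under median ratio scaling). The latter include Neu1, a sialidase (76.1, 82.4 and 96.3 against 29.6, 24.5 and 40.1 FPKM, −1.43 ± 0.20), and Ctsk, cathepsin K (12.2 to 23.8, 0.92 ± 0.17).

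**Figure D4:**
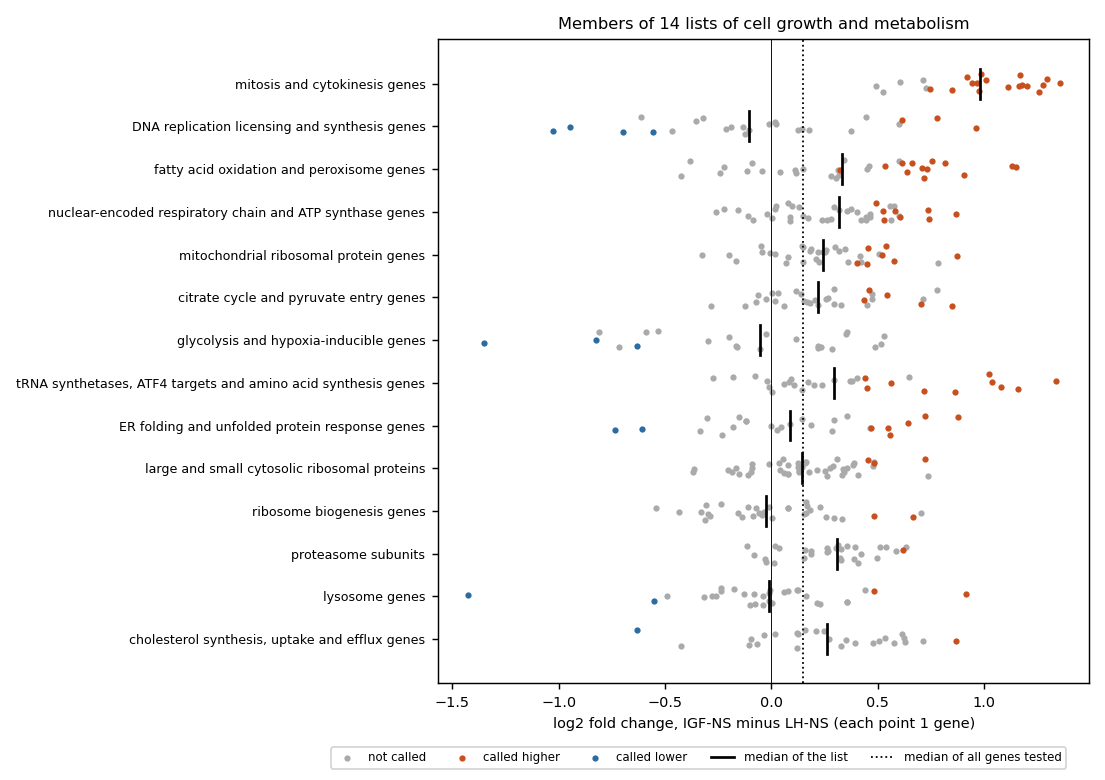
Log2 fold change (x axis, IGF-NS minus LH-NS) of each tested member of 14 lists of cell growth and metabolism, 1 point a gene, orange and blue where called, with the list's median as a bar and the median of all genes, 0.15, as a dotted line. Mitosis genes lie together at a median of 0.98, while ribosomal proteins, at 0.15, lie on the dotted line.

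Genes of fatty acid oxidation lay to the higher side, and genes of the mitochondrial chain, ribosome and citrate cycle near the share of all genes. Of fatty acid oxidation and peroxisome genes 13 of 32 tested members rose and 0 fell (5 to 13 and 0 to 1 without LH-NS-2, LH-NS-3, IGF-NS-1, IGF-NS-2 or IGF-NS-3, 6 and 0 under median ratio scaling), with a median of 0.33. Hadh, an enzyme of beta-oxidation (26.7, 22.1 and 20.6 FPKM against 59.9, 50.7 and 46.97, 1.15 ± 0.14), Cpt2, which loads mitochondria with acyl groups (31.1 to 52.01, 0.73 ± 0.12), and the peroxisomal transporter Abcd3 (6.80 to 12.5, 0.82 ± 0.17) rose. For the respiratory chain 8 of 41 tested members rose and 0 fell (2 to 4 and 0 without LH-NS-1, LH-NS-3, IGF-NS-1 or IGF-NS-2, 2 and 0 under median ratio scaling), for mitochondrial ribosomal proteins 7 of 35 tested members rose and 0 fell (1 to 4 and 0 without LH-NS-2, LH-NS-3, IGF-NS-1 or IGF-NS-2, 1 and 1 under median ratio scaling) and for the citrate cycle 5 of 31 tested members rose and 0 fell (2 to 3 and 0 without LH-NS-1, LH-NS-3 or IGF-NS-1, 2 and 0 under median ratio scaling). These shares are near the 17.4% of all genes. Members whose calls held throughout include Ndufa4 of the chain (174, 198 and 199 FPKM against 365, 342 and 336, 0.87 ± 0.12) and Dld, a subunit shared by the pyruvate and oxoglutarate dehydrogenases (12.4, 14.7 and 14.2 against 27.9, 25.7 and 23.2, 0.85 ± 0.12). Of glycolysis and hypoxia-inducible genes 0 of 23 tested members rose and 3 fell (1 and 3 without LH-NS-1). Car9, a carbonic anhydrase induced by hypoxia, fell from 273, 279 and 294 FPKM to 67.1, 132 and 149 (−1.35 ± 0.25), Slc2a1, the glucose transporter GLUT1, from 32.1 to 20.5 (−0.63 ± 0.15) and Hk2, a hexokinase, from 7.01 to 3.52 (−0.83 ± 0.17).

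Of lipid synthesis and storage genes 8 of 28 tested members rose and 3 fell (5 and 3 without IGF-NS-1). The desaturase Fads2 rose from 50.9, 86.7 and 49.9 FPKM to 148, 163 and 174 (1.40 ± 0.19) and the droplet protein Plin2 from 17.4 to 33.05 (0.87 ± 0.14), while the desaturase relative Fads3 (97.3 to 37.2, −1.39 ± 0.19), the triglyceride lipase PNPLA2 (25.8 to 12.8, −0.93 ± 0.18) and the fatty acid carrier Fabp3 (16.1 to 5.78, −1.34 ± 0.20) fell. Of cholesterol genes 1 of 26 tested members rose and 1 fell (0 to 6 and 1 without LH-NS-1, LH-NS-2, LH-NS-3, IGF-NS-1, IGF-NS-2 or IGF-NS-3, 0 and 1 under median ratio scaling). In the sphingolipid and phospholipid list 2 of 29 tested members rose and 4 fell (2 and 2 without LH-NS-3, 2 and 7 under median ratio scaling). Ptdss1, a phosphatidylserine synthase, fell from 434, 346 and 294 to 131, 89.03 and 163 FPKM (−1.51 ± 0.21). Of retinoid, steroid and alcohol enzymes 6 of 17 tested members rose and 0 fell. Akr1c14, an aldo-keto reductase of steroids, rose from 8.81, 10.3 and 7.69 FPKM to 54.7, 56.7 and 58.6 (2.55 ± 0.24, adjusted p = 0.00011), and Adh7, a retinol-oxidising alcohol dehydrogenase, from 4.01, 2.97 and 1.31 to 14.1, 18.2 and 16.8 (2.27 ± 0.26). Among solute carriers 5 of 27 tested members rose and 5 fell (3 to 5 and 2 to 3 without LH-NS-2, LH-NS-3, IGF-NS-1 or IGF-NS-2). Slc7a1, the arginine transporter, fell (35.2 to 14.6, −1.20 ± 0.19) together with the phosphate transporter Slc20a2 (64.9 to 31.8, adjusted p = 0.00033), and the nucleoside transporter Slc29a1 rose (2.87 to 8.59, 1.31 ± 0.24).

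Antioxidant and detoxifying genes lay to the higher side. Of the redox list 9 of 25 tested members rose and 1 fell (5 to 9 and 0 without LH-NS-1, LH-NS-3, IGF-NS-1 or IGF-NS-2). Hmox1, heme oxygenase 1 (51.3, 50.3 and 38.5 FPKM against 141, 112 and 115, 1.38 ± 0.17), Txn1, thioredoxin (172, 184 and 198 against 307, 321 and 384, 0.86 ± 0.16), Prdx1, a peroxiredoxin (326 to 521, 0.70 ± 0.17), and the glutathione transferase Gstm1 (23.4 to 59.8, 1.34 ± 0.18) rose. In the metal list 5 of 20 tested members rose and 0 fell (3 and 0 without IGF-NS-1 or IGF-NS-2, 3 and 0 under median ratio scaling), including the metallothionein Mt1a (153, 226 and 113 FPKM against 385, 403 and 416, 1.34 ± 0.29). Of eicosanoid enzymes 4 of 14 tested members rose and 1 fell. Ptgs2, cyclooxygenase 2, fell from 6.63, 9.94 and 14.7 FPKM to 3.16, 2.76 and 2.57 (−1.52 ± 0.24), while Ptges, which makes prostaglandin E2 from its product, rose from 1.51, 0.536 and 1.18 to 10.9, 6.31 and 6.90 (2.12 ± 0.24). The epoxide hydrolases Ephx1 (44.3 to 94.3, 1.08 ± 0.18) and Ephx2 (3.62 to 10.97, 1.41 ± 0.24) rose.

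Of interferon-stimulated genes 9 of 18 tested members rose and 0 fell (4 and 0 without IGF-NS-1, 5 and 0 under median ratio scaling). Among these was the GTPase Gbp2 (1.95, 2.30 and 1.90 FPKM against 9.05, 5.03 and 5.06, 1.23 ± 0.22, adjusted p = 0.00321). Of antigen presentation genes 5 of 19 tested members rose and 0 fell (2 to 3 and 0 without LH-NS-2, LH-NS-3, IGF-NS-1 or IGF-NS-2, 3 and 2 under median ratio scaling), among them Psmb9, an immunoproteasome subunit (12.04 to 27.7, 1.14 ± 0.20). In the cytokine list 4 of 22 tested members rose and 4 fell (3 and 2 without IGF-NS-1). Il33, an alarmin, went from 0.431, 0.811 and 0.971 FPKM to 7.91, 5.88 and 7.89 (2.25 ± 0.20), and Il1rl1, its receptor ST2, went the other way, from 5.29, 7.58 and 19.99 to 0.249, 0.257 and 0.213 (−3.07 ± 0.36). Cxcl12, a chemokine of stromal cells, rose from 261, 241 and 199.9 to 554, 468 and 641 (1.24 ± 0.16). Of genes usually studied in neurons 3 of 11 tested members rose and 2 fell (3 and 1 without IGF-NS-1), with Ncam1, a cell adhesion molecule that is also on the glial marker list, at 27.4, 25.6 and 18.3 and 89.2, 84.4 and 87.3 FPKM (1.85 ± 0.18). The glial marker Sox10 was listed at 0.

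Few of the most abundant transcripts were called. Of the 20 genes of highest control level 0 were called higher and 3 lower, and 7 encode ribosomal proteins. Bgn, the proteoglycan biglycan, had 10380, 11260 and 10780 FPKM in LH-NS and 9564, 10210 and 9657 in IGF-NS (−0.14 ± 0.14, adjusted p = 0.492), and Sparc, a matricellular collagen-binding protein, 8203, 8910 and 8846 and 10180, 10910 and 9519 (0.24 ± 0.16, adjusted p = 0.312). In both genes the sets did not overlap, but neither gene passed the test. Gapdh, another common reference gene, which has many near-identical copies among which reads can be split, had 72.2, 74.9 and 66.97 and 69.2, 69.7 and 95.5 FPKM, which overlap (adjusted p = 0.642). Calls were made in 18.7% of genes of 1 to 5 FPKM, 24.9% of those of 5 to 20, 29.0% of those of 20 to 100 and 27.4% of those above.

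Outside the lists, Epyc, the cartilage proteoglycan epiphycan, rose from 39.5, 60.5 and 62.1 FPKM to 465, 461 and 396 (3.03 ± 0.18, adjusted p = 1.2e-05). Add3, gamma-adducin, which caps actin (13.7, 14.7 and 9.98 against 99.4, 90.7 and 73.02, 2.69 ± 0.17), and Sgk1, a kinase downstream of PI3-kinase and glucocorticoids (11.7, 10.2 and 9.17 against 70.6, 42.4 and 56.7, 2.32 ± 0.21), rose as well. Aqp1, the water channel, rose from 166, 91.6 and 82.9 to 487, 226 and 380.3 (1.67 ± 0.30), with a wide spread in both sets. Pdlim1, a LIM protein of stress fibres, fell from 689, 677 and 722 FPKM to 105, 122 and 124 (−2.56 ± 0.11, adjusted p = 3.1e-06). Susd5 (200.4, 198 and 199 against 16.5, 20.6 and 24.00, −3.24 ± 0.17), the LIM proteins Lims2 (171, 91.4 and 118 against 11.6, 8.91 and 14.7, −3.30 ± 0.24) and Fhl2 (44.5 to 5.30, −2.86 ± 0.24), the VEGF receptor Flt1 (23.2 to 3.86, −2.29 ± 0.22), the adaptor Sorbs2 (64.3 to 15.1, −2.03 ± 0.15) and Jph2, which holds the sarcoplasmic reticulum to the cell membrane (25.4 to 6.14, −1.89 ± 0.24), fell too.

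In 4 genes of these levels a library held a failed estimate, so they could not be tested. Dmpk, myotonic dystrophy protein kinase, had 162, 129 and 122 FPKM in LH-NS and 47.5, 40.9 and 50.1 in IGF-NS. Dst, the cytolinker dystonin, had 96.6 and 84.1 FPKM in the LH-NS libraries with a value and 49.8 and 48.2 in those of IGF-NS. The others are Dync1h1 and Plec.

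By record only the IGF-NS set was harvested at 48 h, the control and PDGF-NS sets at 24 h. Growth factor and time thus cannot be told apart here either, also where IGF-NS differs from both other sets. The PDGF-NS libraries (IGF-1 at 24 h by record) were set against the IGF-NS libraries in a direct contrast. It called 1807 of 11376 genes (15.9%), 859 higher and 948 lower in IGF-NS. Among the 1976 genes above control in IGF-NS, 341 (17.3%) were also above PDGF-NS, 125 (6.33%) were below it and 1510 were not called apart. Of the 851 below control, 233 (27.4%) were also below PDGF-NS, 70 (8.23%) were above it and 548 were not called apart. The same IGF-NS libraries stand in both contrasts, so part of the excess in the same direction is built in. A gene not called apart is not shown to be alike in both sets.

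Of the 22 mitosis genes tested 19 were higher in IGF-NS than in PDGF-NS and 0 lower, beside 859 higher and 948 lower of all 11376 genes. Cdc20 was at 7.05, 9.96 and 8.71 FPKM in the PDGF-NS libraries against 23.1, 27.2 and 41.1 in IGF-NS (1.69 ± 0.21, adjusted p = 0.00054), and Stmn1 at 44.1, 63.95 and 60.6 (1.45 ± 0.19). Of MAP kinase feedback and immediate-early genes 17 of 28 were lower in IGF-NS than in PDGF-NS and 2 higher. Etv4 had 5.59, 6.38 and 4.93 FPKM in PDGF-NS (−2.21 ± 0.18, adjusted p = 4.4e-05). Prrx2 stood at 14.99, 15.1 and 20.3 FPKM in PDGF-NS, far below each IGF-NS library (2.75 ± 0.17, adjusted p = 1.1e-05). Mest (12.1, 12.6 and 11.3 FPKM in PDGF-NS, 2.62 ± 0.20), Ntrk3 (5.92, 8.33 and 9.24, 2.49 ± 0.17), S1pr3 (19.6, 30.1 and 23.7, 1.74 ± 0.19), Cxcl12 (182, 148 and 180.1, 1.70 ± 0.16) and Ror1 (17.4, 17.1 and 14.3, 1.49 ± 0.13) were above control in IGF-NS and above PDGF-NS too.

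Other genes were lower in IGF-NS than in both other sets. The channel Trpc6 had 16.8, 23.5 and 22.5 FPKM in PDGF-NS (−2.79 ± 0.25, adjusted p = 7.6e-05), the integrin Itga7 15.4, 31.5 and 33.8 (−2.64 ± 0.33), the connexin Gja5 12.1, 21.5 and 19.1 (−3.84 ± 0.24) and Hspb1 530.0, 610.1 and 726 (−1.94 ± 0.22). For Cd44 the PDGF-NS values were 85.6, 65.8 and 73.5 FPKM (−2.34 ± 0.21), for S100a6 4386, 3810 and 4734 (−2.06 ± 0.23) and for Ccnd1 106, 156 and 120.4 (−1.52 ± 0.18). Nt5e, the ectonucleotidase CD73, had 4.99, 6.61 and 6.72 FPKM in the control, 1.66, 1.68 and 1.54 in the IGF-NS and 37.6, 51.96 and 57.1 in the PDGF-NS columns (−4.23 ± 0.17, adjusted p = 1.7e-06). Lgals3, galectin 3, had 42.3, 43.7 and 56.2, 18.2, 21.7 and 22.1 and 394, 232 and 349 in the same order (−3.88 ± 0.20), and Fxyd5, a regulator of the sodium pump, 34.5, 41.6 and 42.1, 13.4, 13.04 and 15.2 and 102, 109 and 124 (−2.92 ± 0.13). In these 3 genes control lies between both treated sets, and the control means of Gja5, Cd44, S100a6 and Ccnd1 do so too. Genes that fell against control and were not called apart from PDGF-NS include Pdlim1 (136, 125 and 137 FPKM in PDGF-NS, −0.18 ± 0.11, adjusted p = 0.328), Actb (3455, 3821 and 3775, −0.19 ± 0.16, adjusted p = 0.507) and Lims2 (13.2, 9.55 and 9.51, 0.11 ± 0.24, adjusted p = 0.825).

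**Figure D5:**
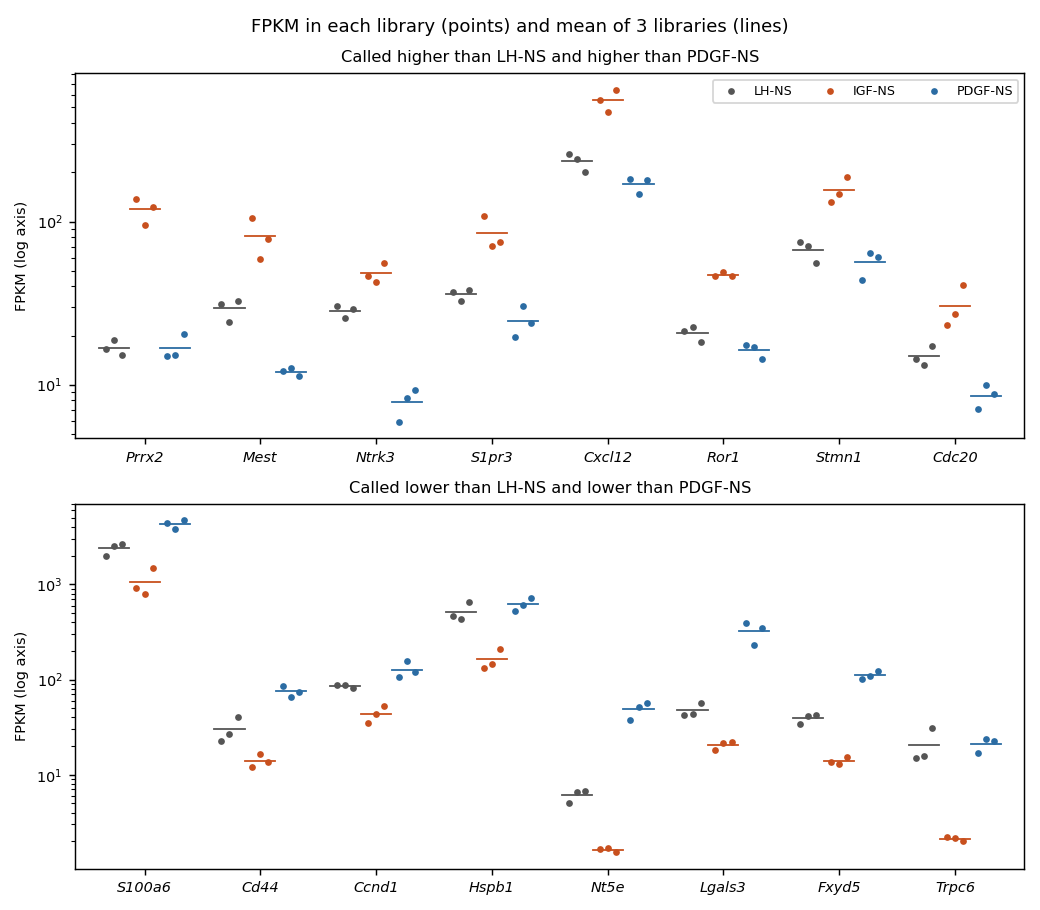
FPKM (log axis) of 16 genes in the LH-NS (grey), IGF-NS (orange) and PDGF-NS (blue) libraries, 3 points and a mean line for each set, with genes called higher than both other sets in the upper panel and lower than both in the lower panel. Prrx2 lies at 95.9 to 137 FPKM in IGF-NS and at 14.99 to 20.3 in the other sets, and Trpc6 at 2.03 to 2.21 against 14.8 to 31.1. By record IGF-NS was harvested at 48 h and the other sets at 24 h.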

How the data were processed

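The members, gene lists and tests were chosen with earlier results of these data known. Per the labels, Trizol RNA went into a library kit for mRNA. The deposited table holds FPKM values per Ensembl gene, made by the authors with GSNAP and Cufflinks per the submitters' processing notes. No genome build or version is named in these notes, and reads may be split among near-identical genes (actins, Gapdh, ribosomal proteins). The value that marks a failed estimate was read as missing in 10 cells, which left 4 genes out of the test. Values were tested as log2(FPKM + 1) with limma 3.58.1 in R 4.3.3 (trended empirical Bayes, 9 libraries in 1 fit, Benjamini-Hochberg adjustment, called at 0.05), after a filter of a mean of 1 FPKM. The script was tested on simulated data. Tables and figures used Python 3.11.15, pandas 2.3.3 and matplotlib 3.10.9. Gene names are those paired with identifiers in the table, and promoters were matched by symbol to RefSeq. Replicate numbers were not used to pair the samples. Same-numbered LH-NS and IGF-NS libraries correlated in their deviations by 0.17, 0.253 and −0.276. Differently numbered ones did so by −0.513 (LH-NS-1 with IGF-NS-2) to 0.407 (LH-NS-3 with IGF-NS-2). With 3 libraries a set, such values cannot show whether libraries were paired. A rule of size of change and of list membership named 250 genes. Of the 239 printed with values 130 are among these, and 109 were chosen after their values were seen. Genes were picked for printing mostly among genes whose call held in each of the 16 alternatives that tested them. Some genes and 1 list are not reported here.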

Additional observations from a re-analysis of the deposited data

How the results depend on the processing

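Of 227 called genes named in the text, 226 kept their call in each of the 16 alternatives that tested them (13 were tested in fewer) and none reversed. Tead2 lost its call in 8. Of the 12 not called, 3 were called under at least 1. The genes named were picked mostly among genes whose calls held, so these counts do not describe calls in general. Of all 2827 calls, 1968 were kept in the same direction with only the 6 libraries compared in the fit, and 1706 without IGF-NS-1. The total of 2827 calls was 1990 with only the 6 libraries compared in the fit and 2364 under median ratio scaling. Both scalings that centre the genes gave fewer rises than the 1976 of the fit used: 1144 (with 1220 falls) under median ratio scaling and 1214 (with 1171 falls) under quantile normalization. Leaving out 1 library gave 1757 to 2935 calls, 1181 to 1960 rises, 576 to 975 falls and 1216 to 2143 calls against PDGF-NS, with the fewest calls in all without IGF-NS-1. Replicate numbers were not used to pair the samples, and a fit with the replicate number as a block gave 2457 calls. The deposited values are FPKM, so depth per gene is unknown, and no group of 3 libraries can show a small change in a gene with a wide spread.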
